A study of Homo sapiens with 21 samples.

Results

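The 6 long noncoding RNAs (lncRNAs) NEAT1, MALAT1, UCA1, H19, PVT1 and CDKN2B-AS1 were followed through 21 RNA-seq libraries of 2 human cancer cell lines, FADU (head and neck squamous cancer) and BFTC909 (upper tract urothelial cancer). They were looked up by gene symbol, and all 6 were found among the 20970 genes listed in any of the 4 tables of values. The BFTC909 table has no row for H19 or CDKN2B-AS1, so 4 of the 6 could be followed there. The set was chosen by name with results of hypoxia and METTL4-si libraries of this series in view, so the changes in the knockdown tables are given as a description without a test.

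The series asked how METTL4, a methyltransferase reported to put N6-methyladenine on DNA, acts in cells short of oxygen. In the knockdown experiment, cells of each line carried a scrambled siRNA (Scr-si) in normoxia (18% O2) or hypoxia (1% O2), or a METTL4 siRNA (METTL4-si) in hypoxia, each for 18 h and with 2 libraries per group. In the overexpression experiment, normoxic FADU cells carried a control, METTL4 or the lncRNA RP11-390F4.3, by stable transfection and again with 2 libraries per group. In the mutant experiment, hypoxic FADU cells were 1 CRISPR control library and 1 library of each of 2 clones with a mutated DPPW motif, the catalytic motif of METTL4, so each mutant library is 1 clone. Nothing in the labels says that replicates came from separate cultures, so p-values measure only the spread between libraries. Values are TMM-normalized counts scaled to library size (CPM), and each table was normalized on its own, so levels are compared within a table.

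LncRNAs are transcripts that do not encode protein and act as RNA. NEAT1 is the scaffold of paraspeckles, nuclear bodies that hold RNA-binding proteins, and MALAT1 gathers in nuclear speckles, which store splicing factors. H19 is expressed from the maternal chromosome beside IGF2 and is the host of miR-675, UCA1 is a transcript first known from bladder cancer, PVT1 lies next to the MYC oncogene, and CDKN2B-AS1 (ANRIL) runs antisense through the CDKN2A and CDKN2B tumour suppressor genes and is linked to Polycomb repression.

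In GRCh37, NEAT1 (ENSG00000245532) lies on the plus strand at chr11:65190245-65213011, and MALAT1 (ENSG00000251562) follows it on the same strand at chr11:65265111-65275544. H19 (ENSG00000130600) is on the minus strand at chr11:2016396-2025782. UCA1 (ENSG00000214049) is at chr19:15939016-15947138 and CDKN2B-AS1 (ENSG00000240498) at chr9:21994138-22128102, both on the plus strand. All 6 are annotated as lncRNA genes, and the values count reads over exons of each gene. Short and long NEAT1 isoforms share their first part and cannot be told apart. Libraries were stranded, but the strand setting of the counting is not given in the sources used here, so values of CDKN2B-AS1 are uncertain where it overlaps CDKN2B and CDKN2A, and those of MALAT1 where its antisense partner overlaps it.

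Sequences from RefSeq (GRCh38.p14) are shown for H19, which with UCA1 differed most under hypoxia in FADU, and for MALAT1, the most abundant of the set. H19 gives rise to 2 mature miR-675 arms, on the minus strand at chr11:1996800-1996822 and chr11:1996768-1996787, here with the seed (bases 2 to 8) in capitals.
hsa-miR-675-5p: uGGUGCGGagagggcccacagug
hsa-miR-675-3p: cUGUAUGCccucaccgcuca
The arms have different seeds. The libraries measure the host transcript and not the mature arms.

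The promoter windows of 300 bases were searched on both strands for the cores of the hypoxia response element, ACGTG and GCGTG, which HIF dimers are known to bind. Matches are in capitals below, and CACGT and CACGC are the cores read on the other strand. The H19 window is chr11:2001217-2001516 (minus strand) and the MALAT1 windows are chr11:65497488-65497787 and chr11:65498795-65499094 (plus strand).
H19 promoter: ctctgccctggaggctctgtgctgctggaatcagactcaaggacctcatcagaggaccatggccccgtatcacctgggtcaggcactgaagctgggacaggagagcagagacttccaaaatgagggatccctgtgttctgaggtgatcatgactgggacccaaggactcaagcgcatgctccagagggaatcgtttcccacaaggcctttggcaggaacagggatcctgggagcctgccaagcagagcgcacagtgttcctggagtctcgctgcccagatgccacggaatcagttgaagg
MALAT1 promoter 1: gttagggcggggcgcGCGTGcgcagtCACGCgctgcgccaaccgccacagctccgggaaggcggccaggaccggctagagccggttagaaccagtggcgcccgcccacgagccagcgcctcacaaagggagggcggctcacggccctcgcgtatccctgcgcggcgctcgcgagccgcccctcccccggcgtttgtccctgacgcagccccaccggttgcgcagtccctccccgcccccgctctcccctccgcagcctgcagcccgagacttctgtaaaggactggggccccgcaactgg
MALAT1 promoter 2: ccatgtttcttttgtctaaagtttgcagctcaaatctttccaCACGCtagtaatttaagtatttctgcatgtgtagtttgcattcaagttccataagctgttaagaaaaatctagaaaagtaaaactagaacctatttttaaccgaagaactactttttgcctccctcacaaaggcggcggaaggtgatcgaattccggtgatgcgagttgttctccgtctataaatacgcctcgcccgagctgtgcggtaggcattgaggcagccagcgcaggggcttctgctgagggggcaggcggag
The H19 window held 0 matches, the MALAT1 windows 2 and 1, and the CDKN2B-AS1 window 1, while 48.4% of 35116 promoter windows of this length held at least 1. A match is only these letters in this window. Only 1 H19 window was searched, so its 0 matches say nothing of any other start site of H19.

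The 18 replicated libraries held 19038795 to 25410656 reads on genes. CA9, a carbonic anhydrase induced by low oxygen, was 2.33 and 2.55 in normoxic and 31.0 and 37.8 in hypoxic FADU libraries, but 1.87 and 2.22, as low as in normoxia, in the hypoxic FADU libraries labelled METTL4-si. Of the 7 genes of the HIF and hypoxia list, 3 were called higher in FADU hypoxia (CA9, SLC2A1 and ADM) and 1 lower (all genes 9.73% and 9.65%). The lower 1 was the growth factor gene VEGFA (mean 183 against 242, -0.41 ± 0.08, limma adjusted p = 0.016). In FADU METTL4-si libraries the mean of the glucose transporter gene SLC2A1 was 359 against 1345 in hypoxic Scr-si and 361 in normoxia, and that of ADM (adrenomedullin) 7.67 against 59.2 and 7.502. In BFTC909, CA9 had a mean of 0.766 in normoxia, 55.1 in hypoxic Scr-si and 5.69 in METTL4-si. Of the 7 genes there, 5 were called higher and 1 lower in hypoxia (all genes 17.9% and 18.3%). In BFTC909 METTL4-si 0 were higher and 5 lower (13.2% and 11.7%). In FADU METTL4-si 1, VEGFA at 0.45, was higher and 4 were lower (12.5% and 15.3%). The part of these hypoxia genes in the METTL4-si differences below was not tested. METTL4 RNA was 25.3 and 26.6 in hypoxic Scr-si and 24.2 and 27.1 in the FADU libraries labelled METTL4-si, so the knockdown is not seen in the RNA of FADU, whereas BFTC909 libraries labelled METTL4-si had 12.2 and 14.4 against 15.6 and 19.03 in hypoxic Scr-si. METTL4 overexpression libraries held 139 and 158 against 32.7 and 35.4 in control. RP11-390F4.3, matched by primer position to ENSG00000225489, was 23.9 and 25.1 in its overexpression libraries, 21.7 and 21.8 in METTL4 overexpression and 12.9 and 13.4 in control. Squamous markers were present in FADU (5 of 5), whereas 2 of 7 urothelial markers had a row in BFTC909. Fibroblast markers (5 of 6) summed to 1020 and 1114 in BFTC909 normoxia, 4447 and 4652 in hypoxia and 2481 and 2680 in METTL4-si, so they moved with the groups compared there, and their part in the BFTC909 differences was not tested.

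Some libraries stood apart. Markers of luminal breast cells (6 of 8 in the FADU table) summed to 99.5 in FADU normoxia replicate 1 and 503 in FADU METTL4-si replicate 1, and to 4.51 to 9.17 in the other 4 libraries. In BFTC909 METTL4-si replicate 2, the urothelial and breast marker GATA3 was 128 and GREB1, of the breast list, 121. They were 0.573 to 0.964 and 1.52 to 10.6 in the other 5. Only 2 of 8 breast markers had a row in BFTC909, and their sum did not set this library apart. It was 405 there and 313 in METTL4-si replicate 1, 324 and 335 in normoxia, and 998 and 1020 in hypoxic Scr-si. RP11-390F4.3 overexpression replicate 2 had a sum of 40.3 (4 of 8 markers in the table), against 4.37 to 6.81 elsewhere in its table. In bulk RNA, fewer cells of a type and less RNA per cell cannot be told apart. The part of these markers in the results was not tested.

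MALAT1 was the highest of the set per kilobase of exon in each group, and CDKN2B-AS1 the lowest in each FADU group. In normoxic FADU the value per kilobase was 1678 ± 44.9 (SD, n = 2) for MALAT1, 233 ± 11.2 for NEAT1, 32.5 ± 3.16 for H19, 6.54 ± 0.144 for UCA1, 4.09 ± 0.206 for PVT1 and 0.194 ± 0.00200 for CDKN2B-AS1, and no neighbours in this order overlapped. MALAT1 took 1.66% and 1.71% of all gene signal in these libraries, and NEAT1 0.495% and 0.524%. In normoxic BFTC909 the order of the 4 listed was MALAT1 (1322 ± 13.6), NEAT1 (94.2 ± 0.0860), UCA1 (30.3 ± 0.346) and PVT1 (3.11 ± 0.152). CDKN2B-AS1 rested on 71 to 177 reads a library, and UCA1 on fewer, 48 and 40, in BFTC909 METTL4-si libraries.

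**Figure D1:**
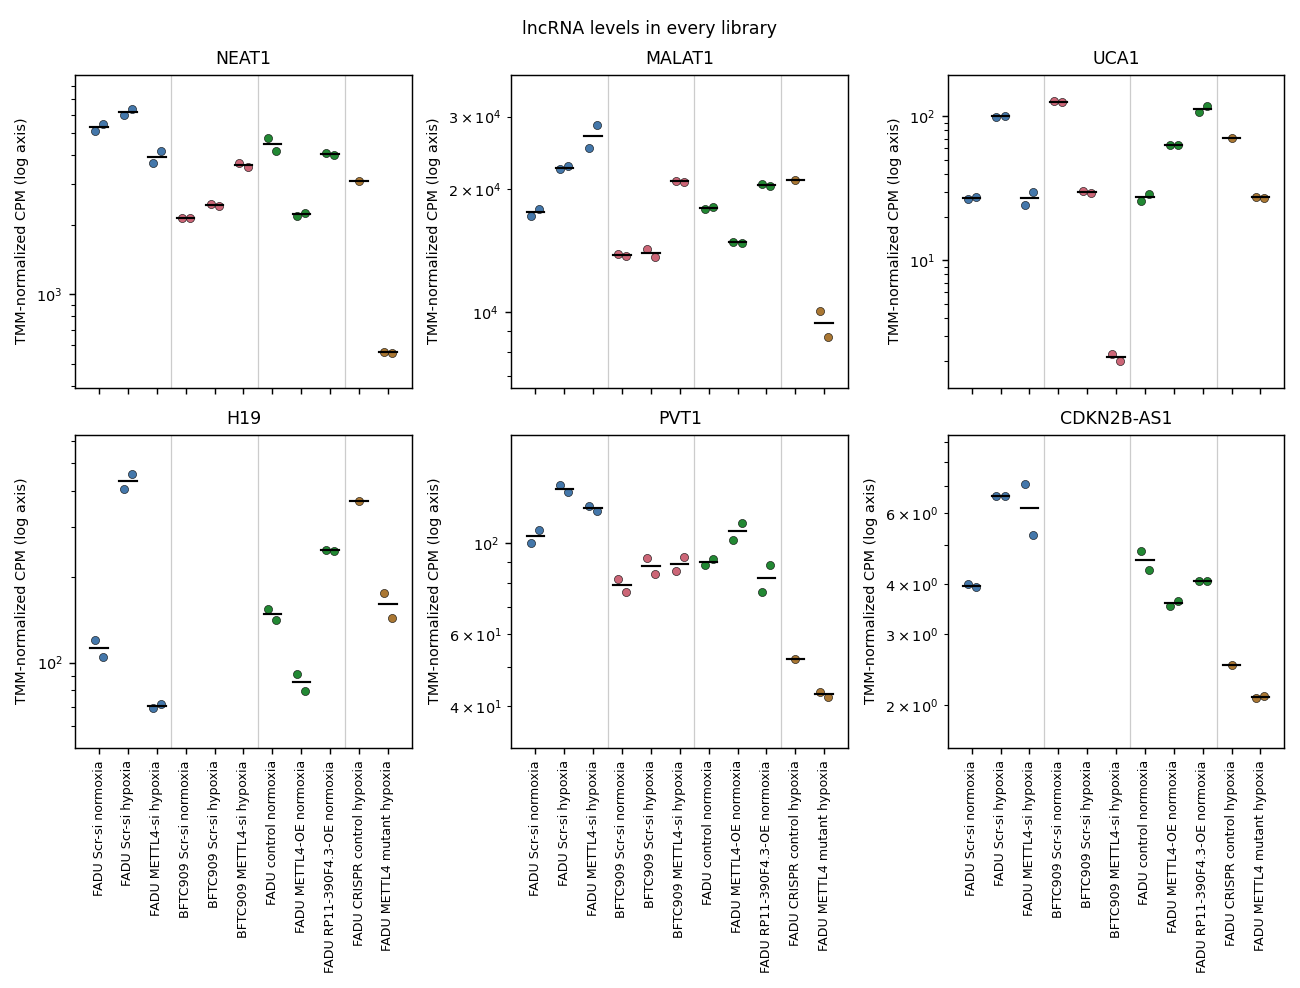
TMM-normalized CPM (log axis) of each lncRNA in every library, with points for libraries and bars for group means; colours mark the 4 separately normalized tables. UCA1 is higher in hypoxia in FADU and lower in BFTC909, and NEAT1 falls to 561 and 556 in the mutant clones.

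Under hypoxia in FADU, H19 and UCA1 were the members with the largest differences. H19 was 120 and 105 in normoxia and 406 and 459 in hypoxia. UCA1 was 26.8 and 27.6 in normoxia and 98.3 and 101 in hypoxia. For both, each hypoxic library lay far above each normoxic one, at 3.85 times (H19) and 3.67 times (UCA1) the normoxic mean. On the log2(value + 1) scale this was 1.93 ± 0.09 (SE) for H19 and 1.84 ± 0.10 for UCA1, and 2.03 and 1.82 without normoxia replicate 1. Without normoxia replicate 2 they were 1.84 and 1.86, so their order is not settled.

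The other 4 differed less. CDKN2B-AS1 was 3.99 and 3.93 in normoxia and 6.60 and 6.61 in hypoxia, a log2 difference of 0.62 ± 0.15, which was 0.37, just under the 1.3-fold line, with a pseudocount of 5. PVT1 was 100.4 and 108 against 139 and 133, 0.38 ± 0.07, just past the 1.3-fold line, and short of it at 0.33 without normoxia replicate 1 and 0.35 without hypoxia replicate 1. MALAT1 was 17177 and 17840 against 22347 and 22664, 0.36 ± 0.16, just short of it. NEAT1 was 5115 and 5477 against 5966 and 6335, 0.22 ± 0.11. For all 6, each hypoxic library lay above each normoxic one. Of these, 4 of 6 were also past 1.3-fold. Separate libraries and a 1.3-fold difference in either direction were seen together in 27.4% of all 16324 genes tested. The share of all genes with separate libraries at any fold is not given here, so the 6 of 6 is only a description.

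In FADU libraries labelled METTL4-si, H19, UCA1 and NEAT1 were lower than in hypoxic Scr-si cells. H19 was 69.2 and 71.8, 6.14 times below its hypoxic Scr-si mean and also below both normoxic libraries. UCA1 was 24.3 and 29.6, 3.70 times below the hypoxic mean and around the normoxic level. NEAT1 was 3714 and 4167, 1.56 times below. The log2 differences were -2.60 ± 0.09 for H19, -1.86 ± 0.10 for UCA1 and -0.64 ± 0.11 for NEAT1. Without normoxia replicate 1 and METTL4-si replicate 1, they were -2.57, -1.72 and -0.56.

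MALAT1 did not share this direction. It was 25126 and 28628 in FADU libraries labelled METTL4-si, above both hypoxic Scr-si libraries, a log2 difference of 0.25 ± 0.16 that was 0.35 without METTL4-si replicate 1 and 0.16 without replicate 2. PVT1 was 124 and 120 (-0.16 ± 0.07) and CDKN2B-AS1 7.06 and 5.30, which overlap the hypoxic Scr-si libraries (-0.10 ± 0.15, and -0.27 or 0.08 without METTL4-si replicate 1 or 2). In all, 3 of 6 were past 1.3-fold without overlap, all lower, against 34.1% of all genes tested. The hypoxia and METTL4-si comparisons share their hypoxic Scr-si libraries.

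In BFTC909 UCA1 went the other way. It was 127 and 125 in normoxia, 30.3 and 29.4 in hypoxia and 2.25 and 2.01 in libraries labelled METTL4-si, where it rested on 48 and 40 reads. The groups were well apart, with log2 differences of -2.04 ± 0.09 under hypoxia and -3.30 ± 0.09 for METTL4-si. Without METTL4-si replicate 2 the latter was -3.24. In the METTL4-si libraries UCA1 had 0.513 ± 0.0404 per kilobase and stood below PVT1, at 3.51 ± 0.192.

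NEAT1 and MALAT1 were higher in BFTC909 libraries labelled METTL4-si. NEAT1 was 2144 and 2146 in normoxia, 2464 and 2396 in hypoxia and 3684 and 3564 in METTL4-si. MALAT1 was 13891 and 13691, 14275 and 13619, and 20893 and 20789 in the same order. Against hypoxic Scr-si the log2 difference was 0.58 ± 0.07 for NEAT1 and 0.58 ± 0.11 for MALAT1, and 0.60 and 0.58 without METTL4-si replicate 2. Under hypoxia alone they were 0.18 ± 0.07 and 0.02 ± 0.11, with overlapping MALAT1 libraries. PVT1 stayed between 76.3 and 92.6 in all 6 libraries. Past 1.3-fold without overlap were 1 of 4 lncRNAs under hypoxia, against 40.6% of 14869 genes, and 3 of 4 for METTL4-si, against 29.7%.

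**Figure D2:**
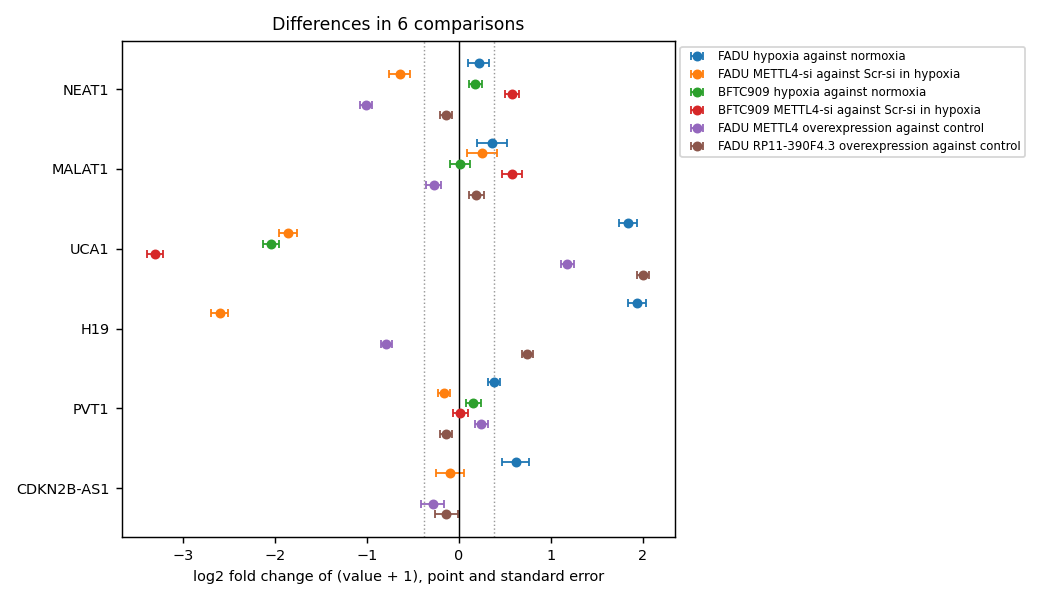
Log2 fold change of (value + 1) with its standard error for each lncRNA in the 6 planned comparisons; dotted lines mark 1.3-fold. UCA1 spans from -3.30 to 2.004, and NEAT1 lies on opposite sides of 0 for METTL4-si in FADU and BFTC909.

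The overexpression libraries are not among the hypoxia and METTL4-si libraries whose results were in view when the set was chosen. Earlier results of these data were known, so the choice may not be independent of the overexpression libraries. Here the differences were tested with limma across all 15644 genes, with Benjamini-Hochberg adjusted p-values. A gene was called at 1.3-fold or more with an adjusted p under 0.05. In METTL4 overexpression libraries UCA1 was higher, and NEAT1 and H19 were lower, than in control. The cells were stably transfected, so the overexpressed gene and other differences between the transfected cells cannot be told apart. UCA1 was 25.7 and 29.0 in control and 63.2 and 63.1 in METTL4 overexpression. Every overexpression library was above every control library, a log2 difference of 1.18 ± 0.07 (limma adjusted p = 1.02e-08). NEAT1 was 4766 and 4190 in control and 2185 and 2246 in METTL4 overexpression. That is 2.02 times lower (-1.01 ± 0.07, limma adjusted p = 3.91e-08). H19 fell from 154 and 141 to 91.2 and 79.4 (-0.79 ± 0.06, limma adjusted p = 2.91e-07).

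MALAT1 (-0.27 ± 0.08), PVT1 (0.24 ± 0.07) and CDKN2B-AS1 (-0.28 ± 0.12) did not reach the call. Of the 6, 1 was called higher and 2 lower, where 8% of all genes were called higher and 10.5% lower.

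In RP11-390F4.3 overexpression libraries UCA1 and H19 were higher than in control. UCA1 was 107 and 118, 4.12 times the control mean (2.004 ± 0.07, limma adjusted p = 3.48e-11), and H19 was 249 and 247, 1.68 times the control mean (0.74 ± 0.06, limma adjusted p = 3.67e-07). NEAT1, at 4088 and 4008, lay below both control libraries and was not called (-0.14 ± 0.07, limma adjusted p = 0.0814, and -0.05 or -0.24 without control replicate 1 or 2). MALAT1 (0.19 ± 0.08), PVT1 (-0.14 ± 0.07, and -0.03 or -0.24 without RP11-390F4.3 overexpression replicate 1 or 2) and CDKN2B-AS1 (-0.14 ± 0.12, and -0.07 without control replicate 1) were not called either. Thus 2 of 6 were called higher and 0 lower at an adjusted p under 0.05, where 16.5% and 12.5% of all genes were (2584 and 1955 genes, or 1997 and 2852 with median-centred libraries), and edgeR on whole reads gave the counts 2 and 0. At an unadjusted p under 0.05, 3 were higher and 1, NEAT1, was lower. Without replicate 2, which had the breast markers, the differences were 1.93 for UCA1 and 0.75 for H19. In these normoxic libraries CA9 had a mean of 13.4 against 0.825 in control (2.98 ± 0.12, limma adjusted p = 1.91e-10). Of the 7 HIF and hypoxia genes, 4 were called higher and 0 lower. With METTL4 overexpression 3 were called higher and 1 lower (all genes 8% and 10.5%). The part of these hypoxia genes in the differences of the lncRNAs was not tested.

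The 2 overexpression groups were compared directly, a comparison added after the values had been seen. These groups were close in RP11-390F4.3 RNA, at 23.9 and 25.1 with RP11-390F4.3 and 21.8 and 21.7 with METTL4. H19 was 2.90 times higher with RP11-390F4.3 than with METTL4 (1.53 ± 0.06, limma adjusted p = 3.15e-10), NEAT1 1.83 times (0.87 ± 0.07, adjusted p = 1.27e-07), UCA1 1.79 times (0.82 ± 0.07, adjusted p = 2.34e-07) and MALAT1 1.38 times (0.46 ± 0.08, adjusted p = 0.000236). PVT1 was lower (-0.38 ± 0.07, adjusted p = 0.00032), and this call was lost without METTL4 overexpression replicate 2 (-0.31) and without RP11-390F4.3 overexpression replicate 1 (-0.27), and with a pseudocount of 5 (-0.37). CDKN2B-AS1 was not called (0.15 ± 0.12, adjusted p = 0.332). In all, 4 of 6 were called higher and 1 lower, where 18.4% and 13.3% of all genes were (2876 and 2074 genes, or 2276 and 2992 with median-centred libraries). Without RP11-390F4.3 overexpression replicate 2 the differences of H19, NEAT1, UCA1 and MALAT1 were 1.54, 0.88, 0.75 and 0.47.

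In hypoxic METTL4 mutant clones, 4 of 6 lncRNAs were lower than in the CRISPR control, with 1 control library and therefore no test. NEAT1 was 3099 in the control and 561 and 556 in clones 1 and 2, 5.52 and 5.58 times lower. UCA1 was 70.8 against 27.7 and 26.9. H19 was 369 against 176 and 144, and MALAT1 21035 against 10088 and 8690. Both clones were below the control for each of these.

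The mean log2 ratio was -2.47 for NEAT1, -1.34 for UCA1, -1.21 for H19 and -1.17 for MALAT1. Of all 15719 genes in the table, 0.0763% had a lower mean ratio than NEAT1. PVT1 (52.2 against 43.5 and 42.1) and CDKN2B-AS1 (2.52 against 2.09 and 2.10) were less than 1.3-fold lower. Past 1.3-fold in both clones were 4 of 6, all lower, against 11.8% of genes lower and 8.94% higher. Of the 7 HIF and hypoxia genes, 1 was past 1.3-fold in both clones, CA9 at 29.8 against 10.4 and 15.2. ADM was 17.5 against 24.8 and 21.8, and SLC2A1 867 against 848 and 740.

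**Figure D3:**
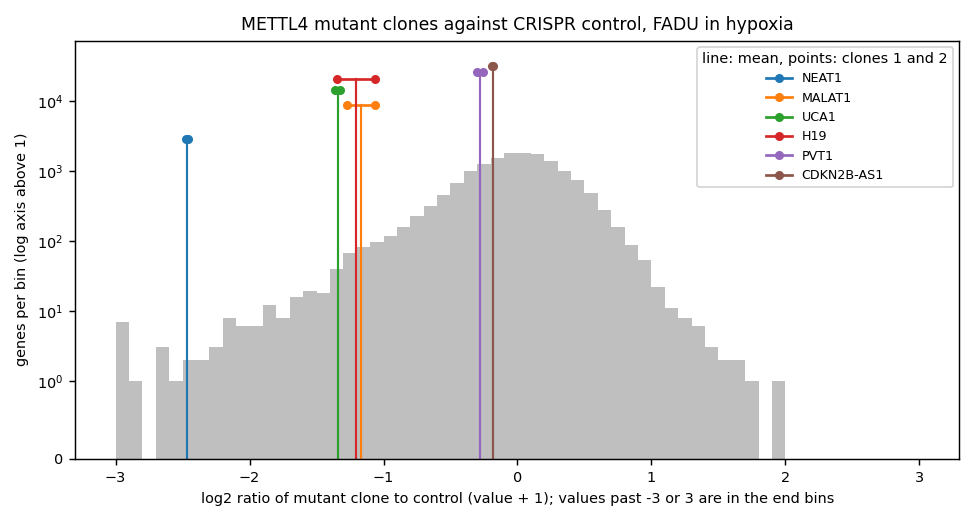
Number of genes (grey bars, log axis above 1) by mean log2 ratio of mutant clones to the CRISPR control, with a line at each lncRNA's mean and points for the clones; the height of the lines has no meaning. NEAT1 at -2.47 lies at the far left, and PVT1 and CDKN2B-AS1 lie within the bulk.

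The genes known to work with these lncRNAs, the nearest protein-coding genes and the 7 HIF and hypoxia genes were tested in the same fits. Of these 80 genes, 71 were tested in FADU knockdown, 64 in BFTC909 and 72 in overexpression libraries. The totals below include the 7 HIF and hypoxia genes. Higher and lower calls of those 7 were 3 and 1 in FADU hypoxia and 5 and 1 in BFTC909 hypoxia. In METTL4-si libraries they were 1 and 4 in FADU and 0 and 5 in BFTC909. With METTL4 overexpression they were 3 and 1, and with RP11-390F4.3 4 and 0. Under hypoxia 12 were called higher and 6 lower in FADU (all genes 9.73% and 9.65%) and 12 and 18 in BFTC909 (17.9% and 18.3%, or 2667 and 2715 genes, which became 3215 and 2107 with median-centred libraries). In METTL4-si libraries 3 were higher and 20 lower in FADU (12.5% and 15.3%) and 0 and 13 in BFTC909 (13.2% and 11.7%, or 1968 and 1736 genes, which became 1489 and 2510 with median-centred libraries), where edgeR called 0 and 14 and 5 were higher and 26 lower at an unadjusted p. With METTL4 overexpression 8 were higher and 4 lower (all genes 8% and 10.5%), and with RP11-390F4.3 18 and 11 (16.5% and 12.5%). The total of 18 in FADU hypoxia was 8 and 9 without normoxia replicate 1 or 2, and 9 and 7 without hypoxia replicate 1 or 2. It was 21 without normoxia replicate 1 and METTL4-si replicate 1 together, when the FADU METTL4-si total was 26. Without METTL4-si replicate 2 the BFTC909 totals were 32 and 13, and without RP11-390F4.3 overexpression replicate 2 that total was 27. Without these libraries 18 of 18 genes called in FADU hypoxia kept their direction, as did 23 of 23 in FADU METTL4-si. In BFTC909 METTL4-si 13 of 13 did, and with RP11-390F4.3 overexpression 28 of 29. The exception, DMRTA1, was below the filter on low values. Short of 1.3-fold were then IGF2BP2 and IGF2BP3 in FADU METTL4-si, EPAS1, RB1 and TEAD1 in BFTC909 METTL4-si, and SRSF7 with RP11-390F4.3. For BFTC909 hypoxia the library left out is in neither group compared, so the log2 differences were unchanged. With both FADU libraries left out, only the 2 hypoxic Scr-si libraries gave the spread. These fits leave groups with 1 library, which is assumed to vary like the other groups.

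Paraspeckle proteins, the partners of NEAT1, were mostly not called. With METTL4 overexpression, where NEAT1 was 2.02 times lower, limma called 0 of 12 and edgeR 0. By limma 8% of all genes were called higher and 10.5% lower. At an unadjusted p under 0.05, 4 were higher and 0 lower (median 0.10 against 0.01 over all genes). Under hypoxia in FADU both tools also called 0 (all genes 9.73% higher and 9.65% lower by limma), with 2 lower at an unadjusted p. The core proteins NONO and SFPQ were not called in any of the 6 comparisons. With RP11-390F4.3 overexpression the RNA-binding protein gene EWSR1 was lower (-0.43 ± 0.05, limma adjusted p = 3.66e-06), and in FADU METTL4-si libraries HNRNPK (-0.46 ± 0.07) and TARDBP (-0.40 ± 0.06) were lower. In the mutant clones 0 of 12 were past 1.3-fold in both clones (all genes 8.94% higher and 11.8% lower).

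Of 10 genes of nuclear speckles and MALAT1 processing, 5 were lower with RP11-390F4.3 overexpression (12.5% of all genes), among them the splicing factor SRSF2 (-0.61 ± 0.05) and PNN (-0.57 ± 0.05), and the median was -0.39. With METTL4 overexpression limma and edgeR called 0 (all genes 8% higher and 10.5% lower by limma). At an unadjusted p under 0.05, 4 were higher and 2 lower. Under hypoxia 2 were lower in FADU (9.65% of all genes) and 5 in BFTC909 (18.3%). These included ELAC2, the enzyme that trims tRNA ends (-0.52 ± 0.06 and -0.75 ± 0.08), and METTL16 (-0.41 ± 0.07 and -0.66 ± 0.08).

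Around NEAT1 and MALAT1, the neighbour LTBP3, a latent TGF-beta binding protein, was lower with METTL4 overexpression (-0.61 ± 0.06) and higher with RP11-390F4.3 (0.59 ± 0.06). It was higher in FADU METTL4-si libraries (0.81 ± 0.06) and lower in those of BFTC909 (-1.35 ± 0.11). FRMD8 was lower in FADU METTL4-si libraries (-0.74 ± 0.08, limma adjusted p = 0.00118), and SLC25A45 was higher in BFTC909 hypoxia (0.67 ± 0.15).

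In the H19 list, the mRNA-binding protein gene IGF2BP2 was higher with METTL4 overexpression (1.71 ± 0.06, limma adjusted p = 5.53e-11), where H19 was lower, and with RP11-390F4.3 (1.17 ± 0.06), where H19 was higher. PLAGL1, a transcription factor of the imprinted network, was higher in FADU hypoxia (0.82 ± 0.10) and lower in METTL4-si (-0.92 ± 0.10). CDKN1C, a cell cycle inhibitor, was higher in BFTC909 hypoxia (1.499 ± 0.11) and lower in METTL4-si (-1.61 ± 0.11). Counts for this list were 3 higher of 8 in FADU hypoxia (all genes 9.73%) and 5 lower of 8 in FADU METTL4-si (15.3%), with medians of 0.40 and -0.44. The neighbours MRPL23 (-0.53 ± 0.10) and TNNT3 (0.92 ± 0.20) were called in FADU hypoxia.

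Next to UCA1, only CYP4F11, a cytochrome P450, had a row among 4 neighbours. It was called under hypoxia in both lines, higher in FADU (1.12 ± 0.11, limma adjusted p = 0.00123) and lower in BFTC909 (-1.12 ± 0.06, adjusted p = 3.3e-05). It was lower with METTL4 overexpression (-1.18 ± 0.15), where UCA1 was higher. Of the UCA1 regulators, the transcription factor ETS2 was higher with RP11-390F4.3 (1.42 ± 0.05) and lower in METTL4-si libraries of FADU (-0.79 ± 0.07) and BFTC909 (-0.74 ± 0.07). Of 7 in this list, 3 were higher with RP11-390F4.3 (16.5% of all genes), and 3 lower in BFTC909 hypoxia (18.3%).

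PVT1 (ENSG00000249859) lies on the plus strand of chromosome 8 in GRCh37. Next to it, MYC was lower in BFTC909 hypoxia (-0.90 ± 0.08) and higher with RP11-390F4.3 (0.63 ± 0.05), while PVT1 itself differed by 0.16 ± 0.08 and -0.14 ± 0.07 there. MXI1, a MYC antagonist, was higher under hypoxia in both lines (1.70 ± 0.15 and 1.34 ± 0.14) and lower in METTL4-si libraries (-1.53 ± 0.15 and -0.84 ± 0.14). GSDMC was higher in FADU hypoxia (0.66 ± 0.12) and CYRIB lower in BFTC909 hypoxia (-0.87 ± 0.08). Of 5 MYC network genes, 3 were higher with RP11-390F4.3 (16.5% of all genes), with a median of 0.63.

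Along CDKN2B-AS1, CDKN2B was higher with RP11-390F4.3 (1.15 ± 0.11, limma adjusted p = 1.55e-06), with CDKN2B-AS1 at -0.14 ± 0.12. DMRTA1 was also higher there (0.89 ± 0.16) and ELAVL2 lower (-0.44 ± 0.07). The Polycomb gene BMI1 was lower in FADU hypoxia (-0.61 ± 0.11) and higher with METTL4 overexpression (0.49 ± 0.11), and EZH2 was lower with RP11-390F4.3 (-0.53 ± 0.05). Of 10 genes in this list, 3 were higher and 1 lower with RP11-390F4.3 (16.5% and 12.5% of all genes). In the mutant clones CDKN2B was lower (8.37 against 3.84 and 3.41).

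**Figure D4:**
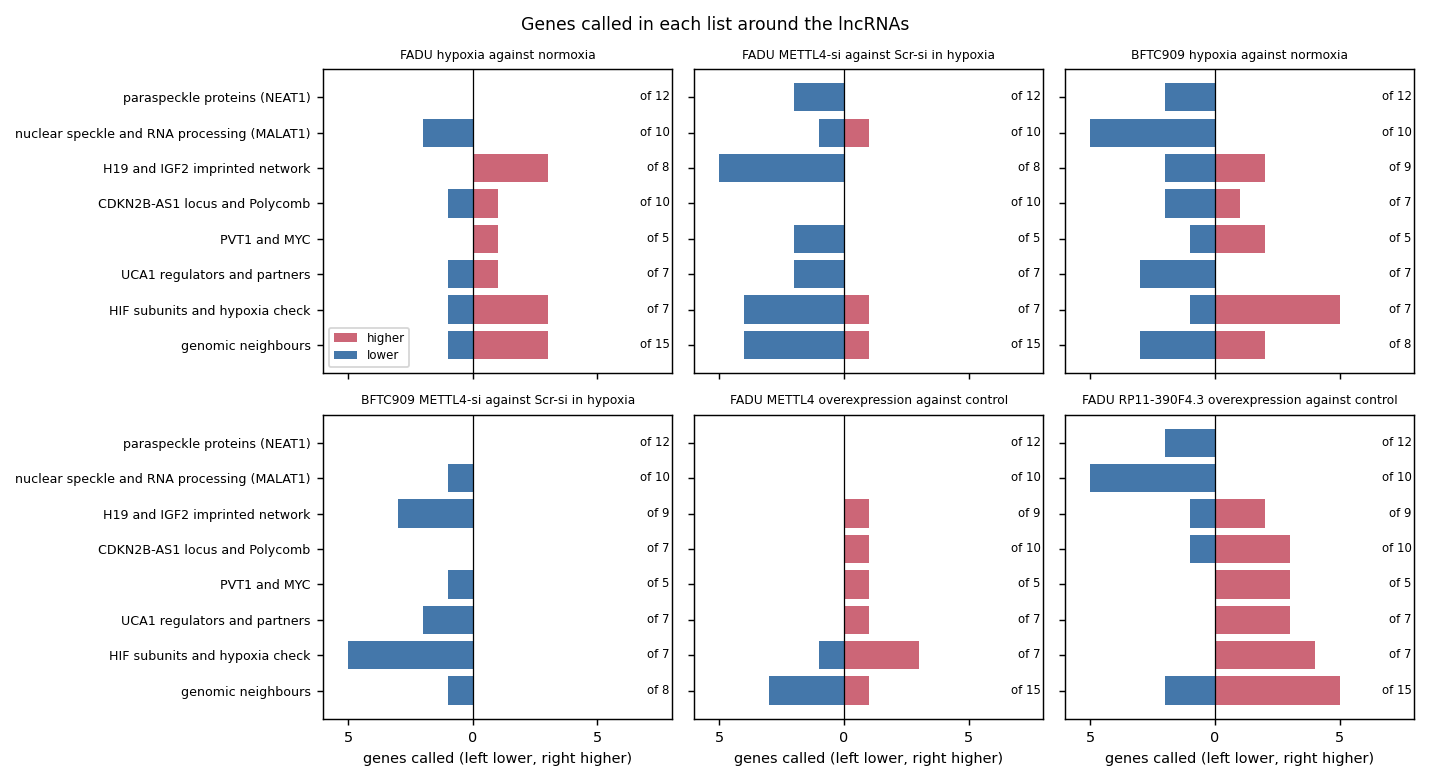
Genes called higher (right) or lower (left) in the lists around the lncRNAs and the HIF and hypoxia list, for the 6 planned comparisons. The number tested stands at the right of each row. Paraspeckle proteins have 0 calls with METTL4 overexpression (all genes 8% higher and 10.5% lower). Genes of nuclear speckles have 5 lower calls with RP11-390F4.3 overexpression (all genes 12.5%).

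For each lncRNA the 3 genes with the most similar pattern were listed, by Pearson's r of log2(value + 1) centred in each table, as a description over libraries that share groups. NEAT1 was most like ERG28 (r = 0.935), SQLE (0.929) and FDPS (0.924) over 18 libraries, the last 2 being enzymes of sterol synthesis. MALAT1 was most like HERC5 (0.964), BST2 (0.963) and ENSG00000272983 (0.958), UCA1 like SNAPC1 (0.957), ATP2C2-AS1 (0.951) and ZFTA (0.937), and PVT1 like RNU1-106P (0.839), ENSG00000234536 (0.836) and snoU13 (0.829). Over 12 FADU libraries H19 was most like CRYBG1 (0.975), NRG4 (0.975) and FLG (0.973), and CDKN2B-AS1 like GABRE (0.937), SETD5 (0.930) and FAAH (0.924). Between members, r over 18 libraries of both lines ran from -0.465 for MALAT1 and UCA1 to 0.475 for NEAT1 and MALAT1. It was -0.390 for NEAT1 and UCA1. Pairs with H19 or CDKN2B-AS1 rest on the 12 FADU libraries alone. Their r ran from 0.0276 for H19 and PVT1 to 0.742 for H19 and UCA1. It was 0.730 for H19 and NEAT1 and 0.647 for CDKN2B-AS1 and MALAT1. The 2 sets of libraries differ, so their values are not ranked together.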

How the data were processed

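RNA-seq of 21 libraries was analysed from 4 tables. Libraries were depleted of ribosomal RNA. Per the study, Trim Galore was used for trimming, HISAT2 for alignment (hg19) and htseq-count for counting, and the authors deposited a normalized signal, the TMM-normalized CPM of edgeR; annotation, strand setting and versions are not given in the sources used here. In the 3 replicated tables, all values (100%) were whole reads within 0.01 read. In the mutant table, between 40.9% and 43.0% of a column lay on rows that name no gene and was left out. The authors' comparison tables (fold changes and p-values) were not used. No value column was left unused. RP11-390F4.3 overexpression columns were assigned by elimination.

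Genes reaching a value of 1 in 2 or more libraries entered limma 3.58.1 (eBayes with trend) on log2(value + 1), the 3 groups of a table sharing the spread, in R 4.3.3; edgeR 4.0.16 on whole reads was an alternative. The self-test used simulated libraries. Exon lengths and neighbours came from GENCODE v44 lifted to GRCh37. Members and lists were chosen with earlier results of these data known. Named were all 6 members, METTL4, RP11-390F4.3 and CA9, 2 genes per list and comparison with the largest called change and no overlap, called neighbours, and 3 like genes per member; other genes named were chosen after their values were seen. Alternatives covered pseudocounts of 0.1 and 5, filters, fits, scaling, call rules, a replicate block and each library left out. Python 3.11.15, numpy 2.4.6, pandas 2.3.3 and matplotlib 3.10.9 were used.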

Additional observations from a re-analysis of the deposited data

Results flagged for a closer look

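UCA1 moved in opposite directions under hypoxia in the 2 lines, with every library of each line on its own side: the log2 difference was 1.84 in FADU and -2.04 in BFTC909. NEAT1 did so for METTL4-si, at -0.64 in FADU and 0.58 in BFTC909. The tables were normalized separately, so these differences between lines were not tested.

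Libraries with METTL4 and with RP11-390F4.3 overexpression differed in 5 lncRNAs by the direct comparison (limma, adjusted p under 0.05). The log2 difference against control with METTL4, against control with RP11-390F4.3, and between the overexpressed genes was -1.01, -0.14 and 0.87 for NEAT1, -0.27, 0.19 and 0.46 for MALAT1, 1.18, 2.004 and 0.82 for UCA1, -0.79, 0.74 and 1.53 for H19, and 0.24, -0.14 and -0.38 for PVT1. PVT1 fell short of 1.3-fold without METTL4 overexpression replicate 2 or RP11-390F4.3 overexpression replicate 1, and with a pseudocount of 5. Both differences against control share the control libraries. Groups of 2 libraries were too small to look for single libraries that stand apart by value.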

How the results depend on the processing

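With a replicate block, 3 lncRNAs were called with METTL4 overexpression and 2 with RP11-390F4.3. Of the 80 other genes, HIF and hypoxia genes included, this setting called 18, 23, 31, 13, 12 and 29. The order is FADU hypoxia, FADU METTL4-si, BFTC909 hypoxia, BFTC909 METTL4-si and the METTL4 and RP11-390F4.3 overexpressions. The labels tie a replicate number to nothing shared, and not every pair was correlated: Pearson correlations of replicate 1 minus 2 across genes were 0.648 for FADU normoxia with METTL4-si, whose replicate 1 libraries both had the breast markers, and -0.0652 to 0.154 for the other group pairs. At 2-fold, 5, 5, 9, 5, 4 and 8 of these genes were called in the same order, and 1 lncRNA with RP11-390F4.3. Leaving out 1 library at a time gave 7 to 20 genes in FADU hypoxia, 16 to 26, 21 to 32, 9 to 16, 9 to 13 and 27 to 31 in the others; fewer libraries enter these fits. The lncRNA calls with METTL4 and RP11-390F4.3 overexpression stayed at 3 and 2 when any 1 library was left out. With a pseudocount of 5, the log2 difference of UCA1 in BFTC909 METTL4-si libraries was -2.29, and with edgeR it was -3.81. Depth limits CDKN2B-AS1 and UCA1 in BFTC909 METTL4-si libraries most.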

Other observations

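HIF1A, the oxygen-regulated HIF subunit, was lower in BFTC909 hypoxia (-0.42 ± 0.09, limma adjusted p = 0.007), and EPAS1 (HIF-2 alpha) was higher there (0.85 ± 0.07, limma adjusted p = 0.000117). EPAS1 was lower with METTL4 overexpression (-0.42 ± 0.05), while CA9 was higher (2.49 ± 0.12). These genes were named after their values were seen.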
